A study of Homo sapiens with 4 samples.

Results

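Homologous recombination copies intact sequence from a sister chromatid to rebuild a broken DNA molecule, and the Fanconi anaemia pathway unhooks crosslinks that tie both DNA strands together. In recombination, nucleases trim the broken ends, BRCA2 and its partners prepare the exposed single strand for pairing with the intact copy, and further proteins such as XRCC3 and RAD51C assist. In the Fanconi pathway, a core complex and the ubiquitin-conjugating enzyme UBE2T mark the FANCD2-FANCI pair with ubiquitin at the crosslink. Oxaliplatin is a platinum drug that crosslinks DNA, mostly within a strand and less often between strands, and both pathways act on the lesions and breaks that follow. The genes described here are a list of 36 named genes of these pathways. Their values are the noncoding transcripts that GENCODE release 29 places under those gene names, which are isoforms of protein-coding genes that the annotation gives no reading frame. They are not measurements of the messenger RNA or of the protein.

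Total RNA was sequenced from HepG2, an established human line from a hepatocellular carcinoma of the liver. The wild-type group had 2 libraries, and the group selected for resistance to oxaliplatin had 2 libraries. All 4 were grown in DMEM with fetal bovine serum and antibiotics, and the labels list no treatment at harvest. No drug dose, selection time, clone or passage is stated, and nothing in the labels tells whether a pair came from separate cultures. The p-values therefore weigh a group difference only against the spread between libraries of a group, and that spread may be technical.

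Of the 36 genes, 33 had at least 1 noncoding transcript in the table, and RMI1, FANCE and FAAP100 had none and were left out. The 33 genes had 160 noncoding transcripts of the 106179 rows in all. Of these, 76 were annotated as retained introns, which keep part of an intron, and 84 as processed transcripts, which lack a reading frame for other reasons. No count was given to 21 of the 160 in any library. The low-count filter (a minimum count of 10, applied by edgeR) was passed by 30 genes and 121 transcripts, and 18 of the 39 transcripts that failed it had some count. PALB2, the protein that links BRCA1 to BRCA2, had 0, 0, 9 and 0 counts and was not tested. RAD54L and FAAP24 were at 0 in all 4 libraries.

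The table held 34898860 to 44063444 counts per library, and these totals cover the listed transcripts only. The 33 genes took 0.367% and 0.348% of the table in the wild-type libraries and 0.351% and 0.504% in the resistant libraries. A total of 3 counts, used as the floor, corresponds to 0.0799 to 0.110 CPM, the counts scaled to a common library size, for gene sums. Hepatocyte markers could be read only through their own noncoding transcripts: 13 of 19 had a row, 9 of those (AFP and TTR among them) were at 0 in every library, and ALB had 8, 0, 0 and 0 counts. Only 2 of the 13 passed the filter, CPS1 at 71.8 and 86.0 CPM against 61.5 and 47.2 CPM (wild type first), and FGG at 0.102 and 0.331 against 0.213 and 2.02 CPM. Of 10 fibroblast and endothelial markers with a row 5 passed the filter, and their sum was 215.5 and 251.2 CPM against 205.7 and 177.9 CPM, nearly all of it VIM (107.5 and 156.3 against 83.2 and 76.1 CPM) and FN1 (101.9 and 85.8 against 118.9 and 100.1 CPM). The sum over 5 proliferation markers was 21.4 and 24.4 CPM against 24.3 and 28.4 CPM. The part of these shifts in the results was not tested. In bulk RNA, fewer cells making a transcript and less of it per cell cannot be told apart.

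The transcripts on which the results turn are shown by a stretch at the edge of the bases that set them apart. Sequences are from GRCh38, 5′ to 3′ on the gene's strand. Capitals mark bases that lie in no exon of any protein-coding isoform of the gene, and lower case marks bases shared with a coding isoform. The first belongs to XRCC3 (chr14:103697609-103715504, minus strand, ENSG00000126215), and its capitals, at chr14:103708462-103708541 with the flanking exon, begin a retained intron with the GT of a splice donor site:
XRCC3 ENST00000554811: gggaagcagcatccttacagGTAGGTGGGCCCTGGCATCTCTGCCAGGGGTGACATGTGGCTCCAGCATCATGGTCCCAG
The next 3 belong to FAAP20 (chr1:2184461-2212720, minus strand, ENSG00000162585). They lie at chr1:2194114-2194193, where capitals run into a shared exon, at chr1:2207674-2207733, the 5′ end of the transcript, and at chr1:2193579-2193658, where an intron is kept after a coding exon and again starts with GT:
FAAP20 ENST00000476803: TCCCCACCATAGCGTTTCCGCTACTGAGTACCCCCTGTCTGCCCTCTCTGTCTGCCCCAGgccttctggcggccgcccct
FAAP20 ENST00000469733: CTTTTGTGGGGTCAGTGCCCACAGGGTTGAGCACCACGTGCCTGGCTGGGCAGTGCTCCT
FAAP20 ENST00000497675: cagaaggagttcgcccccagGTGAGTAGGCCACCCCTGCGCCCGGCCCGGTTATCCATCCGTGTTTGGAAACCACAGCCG
The last 2 are from RAD51C (chr17:58709799-58709878, plus strand), where sequence outside coding exons leads into a shared exon, and from FANCI (chr15:89281816-89281895, plus strand), whose most counted transcript keeps an intron that starts with GT:
RAD51C ENST00000581221: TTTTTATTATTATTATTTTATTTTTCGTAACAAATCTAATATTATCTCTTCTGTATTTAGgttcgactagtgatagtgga
FANCI ENST00000566895: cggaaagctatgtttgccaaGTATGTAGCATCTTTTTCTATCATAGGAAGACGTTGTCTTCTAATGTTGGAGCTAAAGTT

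Most bases of these transcripts were shared with coding isoforms. The median transcript had 75.6% of its bases inside coding-isoform exons, 123 of the 160 had over 50%, and 45 had no base of their own among all annotated transcripts of the gene. Exons of a different gene overlapped 34 of the 160, in 12 of the genes. How reads were divided between overlapping transcripts, and whether strand was used, is not given in the sources used here, so counts of such transcripts carry that uncertainty. Transcripts of 7 or more exons were 23 of the 160 and held 54.8% of the counts, whereas the 70 with 2 or 3 exons held 6.82%.

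Summed over noncoding transcripts, XRCC3 and FAAP20 were lower in the resistant cells and RAD51C was higher, each with no overlap between the groups. The 2 transcripts that carried the difference in FAAP20, and the 2 in RAD51C, were picked after their values were seen. Without them the rest of FAAP20, at 48 and 5 counts against 153 and 94 (wild type first), was higher in resistant cells. The rest of RAD51C was not, and neither remainder was tested. The other 27 tested genes had unadjusted p-values of 0.05 or more. At an adjusted p under 0.05, edgeR's quasi-likelihood test called 0 of the 30 genes, and 0.0% of all 13738 genes tested. At an unadjusted p under 0.05 it gave 3 of the 30 genes against a background of 8.65% of all genes, 1 higher (background 4.72%) and 2 lower (background 3.93%). DESeq2 called 2 of the 30, XRCC3 and FAAP20, against 4.6% of all genes, and limma-voom called 0. Mean levels were higher in resistant cells for 17 genes and lower for 13, with a median log2 fold change of 0.10 beside 0.01 over all genes. Groups did not overlap for 12 of the 30 genes, 7 higher and 5 lower, against 43.0% of all genes. The shares at an unadjusted p under 0.05, by DESeq2 and by non-overlap are counts of few genes close to the background and are not a result about the pathway. A change of less than 1 on the log2 scale was seen for 26 of the 30 (86.7%), and for 74.0% of all genes.

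**Figure D1:**
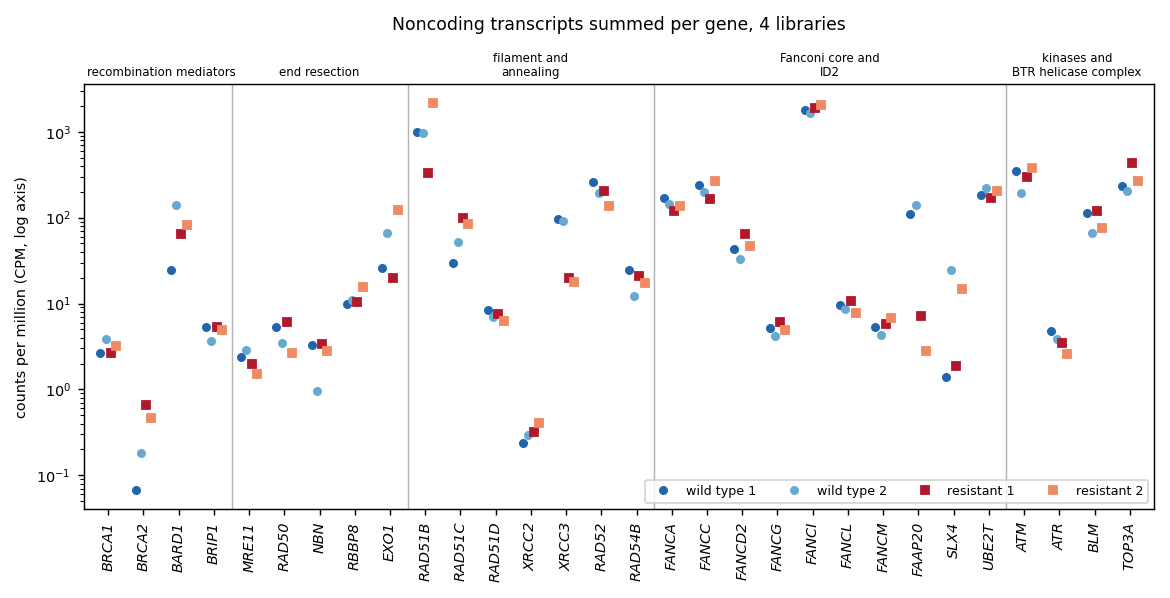
Level of each tested gene, as noncoding transcripts summed per gene in CPM on a log axis, with 1 point per library (circles wild type, squares resistant) and genes ordered by role. XRCC3 and FAAP20 stand out with both squares far below both circles, RAD51C has both squares above both circles, and FANCI and RAD51B are the most counted genes.

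**Figure D2:**
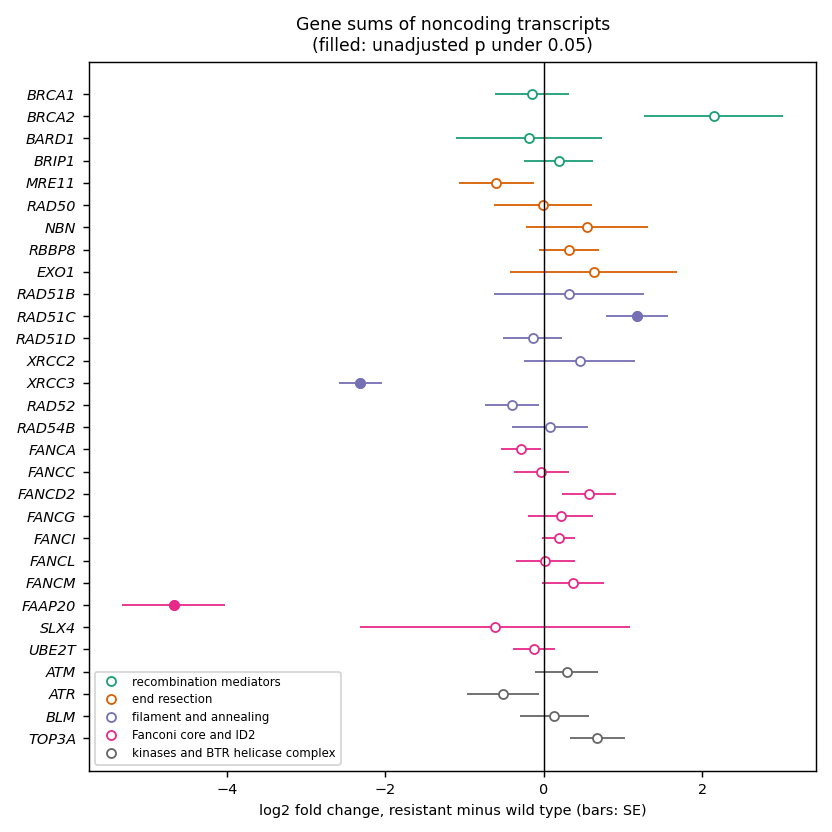
Log2 fold change of each gene sum, resistant minus wild type, with bars for the standard error derived from the edgeR test statistic and colours for the role. Filled points have an unadjusted p under 0.05 and are XRCC3 at -2.32, FAAP20 at -4.67 and RAD51C at 1.18.

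Among the mediators, BRCA1, BRCA2 and their partners, no member had an unadjusted p under 0.05. BARD1, the partner that forms a ubiquitin ligase with BRCA1, had 718 and 3862 counts in the wild-type pair, against 2401 and 2993 in the resistant pair. Its resistant values lay between the wild-type values, and the means were 83.2 ± 83.2 and 72.9 ± 12.7 CPM (SD, n = 2 each). The spread came from ENST00000471787, counted 0, 3210, 1487 and 1108 times, while the other 3 transcripts together gave 718, 652, 914 and 1885. BRIP1, a helicase that binds BRCA1, had 157 and 99 counts against 198 and 180, and its groups overlapped on the CPM scale (4.48 ± 1.19 and 5.10 ± 0.247, SD, n = 2 each). BRCA1 had 79 and 104 counts against 99 and 118, a log2 fold change of -0.15 ± 0.47 (SE). BRCA2 had 2 and 5 counts in the wild-type pair, against 25 and 17 in the resistant pair. Scaled to library size, the summed counts of BRCA2, 7 and 42, gave a ratio of 4.59 with a 95% interval of 2.04 to 12.1 that covers counting error only. With the spread between libraries included, edgeR gave BRCA2 a log2 fold change of 2.14 ± 0.88 (SE), an unadjusted p of 0.0767 and an adjusted p of 0.647. The 2 BRCA2 transcripts were low in all 4 libraries. BRCA2 passed the low-count filter through its resistant counts alone. Its ratio and fold change therefore come from a gene let in by the group where it is high.

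The end resection group, which trims broken ends, also had 0 of 5 genes at an unadjusted p under 0.05. EXO1, a nuclease that cuts long stretches from the 5′ end, had 774 and 1780 counts in the wild-type pair, against 745 and 4455 in the resistant pair. Each pair held a low and a high library, and the log2 fold change was 0.63 ± 1.05 (SE). ENST00000469419 of EXO1 was counted 0, 1255, 0 and 3476 times, and without it the remaining 2 transcripts gave 774, 525, 745 and 979 counts, or 18.7 ± 3.95 and 19.3 ± 4.19 CPM (SD, n = 2 each). RBBP8, which encodes CtIP and starts resection, had 295 and 295 counts against 393 and 568, with means of 10.4 ± 0.60 and 13.0 ± 3.59 CPM (SD, n = 2 each). The 3 subunits of the MRN complex, which first grips the break, were low throughout. MRE11 had 71 and 78 counts against 74 and 55, RAD50 had 156 and 95 against 228 and 97, and NBN had 97 and 26 against 127 and 102. Of these MRE11 alone did not overlap between groups on the CPM scale, with a log2 fold change of -0.60 ± 0.47 (SE). Another gene annotated as coding, AC116366.3, shares exons with both RAD50 transcripts.

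XRCC3, a recombination protein that pairs with RAD51C, had 2834 and 2462 counts in the wild-type pair, against 742 and 647 in the resistant pair. The libraries of each pair were close and the groups lay far apart. Means were 93.3 ± 3.91 and 18.7 ± 1.46 CPM (SD, n = 2 each), which is 4.98-fold lower in resistant cells. The log2 fold change was -2.32 ± 0.27 (SE), with an unadjusted p of 0.00135 and an adjusted p of 0.325 by edgeR. DESeq2 gave an adjusted p of 2.52e-13 for the same XRCC3 counts.

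ENST00000554811 carried the XRCC3 difference. This retained-intron transcript of 5 exons and 3668 bases had 2477 and 2205 counts in the wild-type pair, against 496 and 386 in the resistant pair. Its level went from 67.7 ± 1.42 to 9.85 ± 1.49 CPM (SD, n = 2 each), 6.88-fold lower, with a log2 fold change of -2.78 ± 0.36 (SE), an unadjusted p of 0.00260 and an adjusted p of 0.329 by edgeR. The remaining 5 XRCC3 transcripts together had 357 and 257 counts against 246 and 261, or 8.84 ± 1.51 and 5.68 ± 0.381 CPM (SD, n = 2 each). Transcript CPM is scaled to a larger total than gene-sum CPM, so these values do not add up to the XRCC3 sum. The share of ENST00000554811 in the XRCC3 sum was 87.4% and 89.6% in the wild-type pair, against 66.8% and 59.7% in the resistant pair. The test of unequal change among the XRCC3 transcripts had an unadjusted p of 0.264 and an adjusted p of 0.882 (edgeR diffSpliceDGE). KLC1, a kinesin light chain gene on the opposite strand, has exons over 2008 bases, or 54.7%, of ENST00000554811, and none of the KLC1 transcripts that overlap it there is a row of the table used here. KLC1 exons also cover 34.3% to 100% of each of the remaining 5 XRCC3 transcripts. The 2 deposited KLC1 transcripts that overlap ENST00000555451 of XRCC3 had 746, 662, 1071 and 683 counts. Reads of XRCC3 and KLC1 cannot be told apart in the shared bases if strand was not used, and the part of KLC1 was not tested. 

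RAD51C, which binds XRCC3 and acts in recombination, had 881 and 1402 counts in the wild-type pair, against 3741 and 3077 in the resistant pair. Both resistant libraries were above both wild-type libraries, with means of 40.7 ± 15.3 and 91.9 ± 10.9 CPM (SD, n = 2 each), 2.26-fold higher. The log2 fold change was 1.18 ± 0.39 (SE), with an unadjusted p of 0.0433 and an adjusted p of 0.551 by edgeR, and DESeq2 gave an adjusted p of 0.182. Its unadjusted p was above 0.05 without wild-type replicate 1 (0.105), resistant replicate 1 (0.153) or resistant replicate 2 (0.1005). The higher RAD51C counts lay in ENST00000578151, with 152 and 796 counts against 2560 and 1792, and in ENST00000581221, with 268 and 390 against 848 and 1098. The remaining 3 RAD51C transcripts together had 461 and 216 counts against 333 and 187. Unequal change among the RAD51C transcripts had an unadjusted p of 0.0236 and an adjusted p of 0.258 by edgeR. XRCC3 and RAD51C, whose proteins form a complex, thus had noncoding transcript sums that lay in opposite directions.

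RAD51B was the gene with the highest level per length of the list, at 1216 CPM per kilobase of transcript on average over the 4 libraries, followed by FANCI at 702 and TOP3A at 226. That order rests on unlike libraries: RAD51B stood at 1173, 1043, 347 and 2301 CPM per kilobase, and in resistant replicate 1 FANCI was higher, at 791. RAD51B had 29451 and 26629 counts in the wild-type pair, against 12538 and 78093 in the resistant pair. The resistant libraries lay on either side of the wild-type pair, and the means of 988.5 ± 13.5 and 1235 ± 1275 CPM (SD, n = 2 each) did not differ beyond that spread. Several of its 15 transcripts appeared in a single library: ENST00000478014 was counted 5240, 0, 0 and 0 times, and ENST00000557045 0, 0, 0 and 10240 times. RAD52, which anneals single strands, had 7629 and 5239 counts against 7625 and 5008, and the groups overlapped at 225.6 ± 46.6 and 170.1 ± 46.7 CPM (SD, n = 2 each). The share of ENST00000463750 in the RAD52 sum was 12.2% and 12.1% in the wild-type pair, against 29.1% and 27.7% in the resistant pair, and the transcript was chosen for mention after its values were seen. Its own counts of 931 and 636 against 2220 and 1385 had an unadjusted p of 0.138. RAD51D and RAD54B overlapped between groups, and XRCC2 had only 7 and 8 counts against 12 and 15. All 7 RAD51D transcripts share exons with the readthrough gene RAD51L3-RFFL, and the 3 RAD54B transcripts share exons with FSBP.

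**Figure D3:**
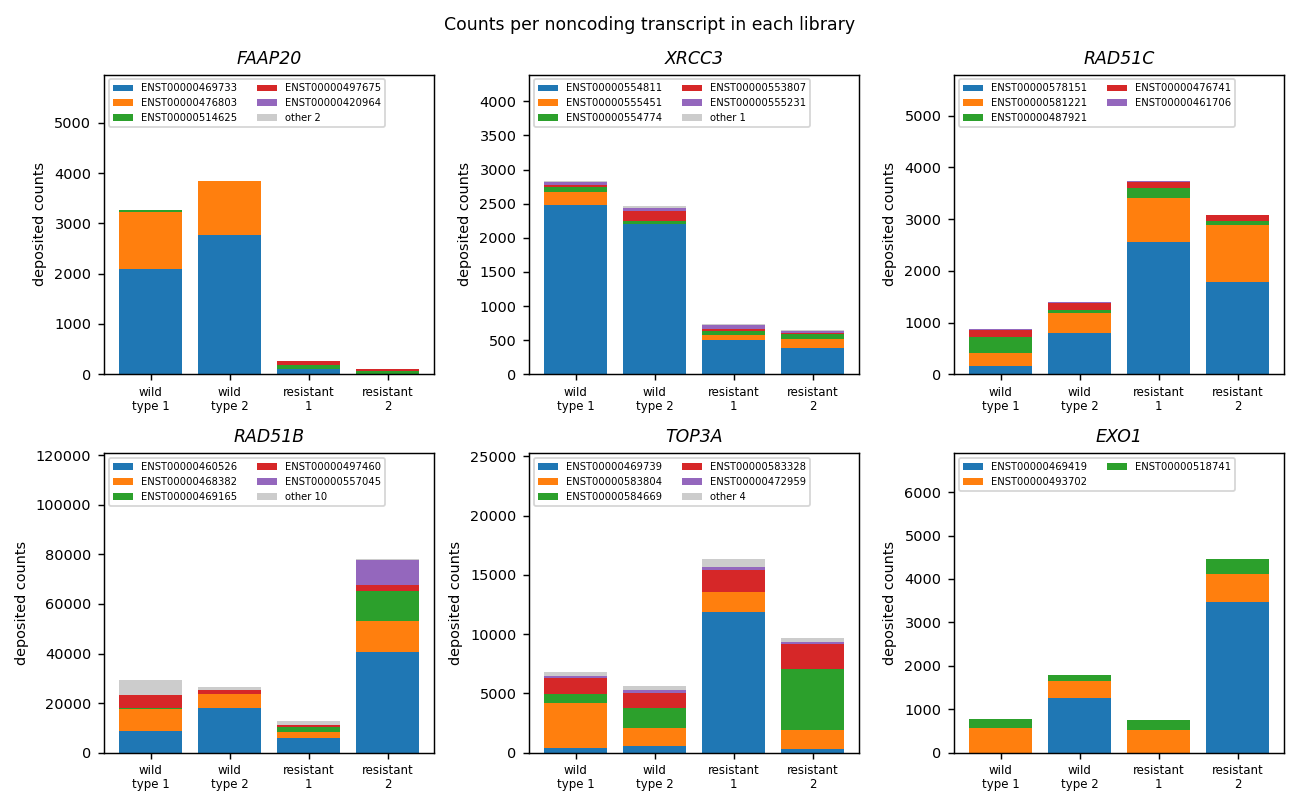
Deposited counts of each noncoding transcript, stacked per library, for FAAP20, XRCC3, RAD51C, RAD51B, TOP3A and EXO1, with 1 colour per transcript and grey for the least counted ones. The bars of FAAP20 and XRCC3 are short in both resistant libraries, whereas in RAD51B, TOP3A and EXO1 single transcripts fill much of the bar in 1 library of a pair and little or none of it in the other.

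FAAP20 encodes a small ubiquitin-binding subunit of the Fanconi core complex that stabilises FANCA. Its noncoding transcripts had 3274 and 3844 counts in the wild-type pair, against 267 and 101 in the resistant pair. Every resistant value was far below the wild-type values, with means of 126.1 ± 21.5 and 4.94 ± 3.08 CPM (SD, n = 2 each), 25.5-fold lower. The fitted fold was 45.5 without resistant replicate 1 and 17.6 without resistant replicate 2. The log2 fold change of FAAP20 was -4.67 ± 0.65 (SE), with an unadjusted p of 0.00263 and an adjusted p of 0.325 by edgeR, and DESeq2 gave an adjusted p of 2.05e-10. Summed over its retained-intron transcripts alone, FAAP20 had a log2 fold change of 1.84, the opposite direction. That fold change had an unadjusted p of 0.174 and an adjusted p of 0.715 by edgeR.

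FAAP20 had 7 noncoding transcripts, of which 2 made nearly all the wild-type counts. ENST00000476803, a processed transcript of 3 exons and 701 bases with 80 bases outside coding exons, had 1135 and 1061 counts in the wild-type pair, against 13 and 7 in the resistant pair. Its level was 31.8 ± 0.433 against 0.223 ± 0.0893 CPM (SD, n = 2 each), 142.8-fold lower, and the log2 fold change of -7.14 ± 0.60 (SE) had an unadjusted p of 0.000628 and an adjusted p of 0.329 by edgeR. ENST00000469733, of 8 exons, had 2091 and 2778 counts against 101 and 0, with an unadjusted p of 0.108. Exons of PRKCZ, a kinase gene on the opposite strand, cover 590 bases, or 25.9%, of ENST00000469733, and the 2 deposited PRKCZ transcripts that overlap it had 373, 333, 382 and 484 counts. 

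The remaining 5 FAAP20 transcripts together had 48 and 5 counts in the wild-type pair, against 153 and 94 in the resistant pair. ENST00000497675, which keeps an intron, had 1 and 3 counts in the wild-type pair, against 77 and 36 in the resistant pair. Scaled to library size this was a ratio of 21.8 with a 95% interval of 8.30 to 81.5 for counting error only, and the unadjusted p was 0.0145. Leaving out 1 library moved its log2 fold change of 4.35 to 3.75 without wild-type replicate 1, 5.36 without wild-type replicate 2, 3.73 without resistant replicate 1 and 4.77 without resistant replicate 2. Its share of the FAAP20 sum was 0.0305% and 0.0780% in the wild-type pair, against 28.8% and 35.6% in the resistant pair. ENST00000514625, also a retained intron, had 45 and 2 counts against 74 and 58, and its share went from 1.37% and 0.0520% to 27.7% and 57.4% of a smaller sum. Unequal change among the FAAP20 transcripts had an unadjusted p of 0.00612 and an adjusted p of 0.105 by edgeR's diffSpliceDGE.

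FANCI, which is ubiquitinated together with FANCD2, was the most counted of these genes over the 4 libraries together and made 33.4% to 45.9% of all their counts. It had 52425 and 44843 counts in the wild-type pair, against 69996 and 74282 in the resistant pair. The resistant values were higher without overlap, but by little: means were 1713 ± 90.5 and 1948 ± 118.6 CPM (SD, n = 2 each), a log2 fold change of 0.19 ± 0.21 (SE) with an unadjusted p of 0.424 and an adjusted p of 0.857 by edgeR. A single retained-intron transcript of 24 exons and 4663 bases, ENST00000566895, held 91.4% to 93.5% of the FANCI counts in each library, and 1300 of its bases lie outside coding exons. The remaining 6 FANCI transcripts together had 3408 and 3266 counts against 6034 and 6306. FANCD2, its partner, had 1256 and 889 counts against 2446 and 1692, a log2 fold change of 0.57 ± 0.34 (SE) with no overlap between groups and an unadjusted p of 0.178.

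Elsewhere in the Fanconi group no gene had an unadjusted p under 0.05. FANCC, a core complex subunit, had 7047 and 5453 counts against 6174 and 9689, and the resistant libraries enclosed the wild-type pair. FANCA, the core complex subunit that binds FAAP20 and FANCG, had 5007 and 3895 counts against 4456 and 5009, a log2 fold change of -0.29 ± 0.25 (SE), with both resistant CPM values below both wild-type values. The ubiquitin-conjugating enzyme UBE2T had 5480 and 6087 counts against 6342 and 7532. On the CPM scale its groups overlapped, at 185.7 and 223.8 against 168.9 and 206.1. The ubiquitin ligase FANCL, with 283 and 233 counts against 397 and 284, also overlapped on the CPM scale. FANCG overlapped too, and FANCM, the translocase that finds the lesion, had 159 and 117 counts against 218 and 245. SLX4, the scaffold for crosslink-cutting nucleases, had 41 and 661 counts against 71 and 544, so that each pair spanned a far wider range than the groups differed. Over the 11 genes of this group the summed level was 2489 ± 81.0 and 2569 ± 219.6 CPM (SD, n = 2 each), of which FANCI made the larger part.

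Of the damage kinases and the BLM helicase complex, none had an unadjusted p under 0.05. ATM, the kinase that responds to broken ends, had 10403 and 5308 counts in the wild-type pair, against 11038 and 13699 in the resistant pair, and the groups overlapped at 273.8 ± 111.3 and 334.4 ± 57.1 CPM (SD, n = 2 each). ATR, the kinase that responds to single-stranded DNA, had 143 and 105 counts against 132 and 94 in its noncoding transcripts, a log2 fold change of -0.52 ± 0.46 (SE). A row annotated as protein-coding, ENST00000513291, lay outside the rule and had 4900 and 3462 counts against 2753 and 2318, with a log2 fold change of -1.09, an unadjusted p of 0.0377 and an adjusted p of 0.579 by edgeR. BLM, the helicase that undoes joined DNA molecules, overlapped between groups with 3340 and 1790 counts against 4484 and 2800.

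TOP3A, the topoisomerase that works with BLM, had 6816 and 5615 counts in the wild-type pair, against 16321 and 9651 in the resistant pair, with no overlap. Its means were 218.7 ± 17.4 and 349.4 ± 120.7 CPM (SD, n = 2 each), and the log2 fold change of 0.68 ± 0.35 (SE) had an unadjusted p of 0.128 and an adjusted p of 0.695 by edgeR. The 2 resistant libraries reached these sums through different TOP3A transcripts: ENST00000469739 had 389, 523, 11847 and 291 counts, and ENST00000584669 had 825, 1743, 0 and 5170. The remaining 7 TOP3A transcripts together had 5602 and 3349 counts against 4474 and 4190. In CPM these were 155.5 and 101.4 against 98.4 and 95.5, lower in resistant cells without overlap, the opposite direction to the TOP3A sum. The difference in this remainder was not tested.

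Such exchanges within a pair were common among the transcripts. Of the 139 transcripts counted in any library, 19 (13.7%) had 0 counts in a library and over 100 in its partner of the same group, beside 10.3% of all 56969 counted transcripts. They included transcripts of ATM (ENST00000524792, with 0, 1581, 0 and 0 counts), EXO1, BARD1, RAD51B, SLX4 and TOP3A. No transcript of the list was at 0 in both libraries of a group and over 100 in both of the other, a pattern held by 1.03% of all transcripts. Summed per gene, none of the 33 genes was at 0 in a library and over 100 in its partner, a pattern held by 798 of all 17898 counted genes. The median absolute log2 ratio within the pairs was 0.33 and 0.36 for gene sums of the list (wild type first), beside 0.57 and 0.51 for all gene sums. For transcripts it was 0.59 and 0.57 in the list, beside 0.71 and 0.61 for all transcripts.

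**Figure D4:**
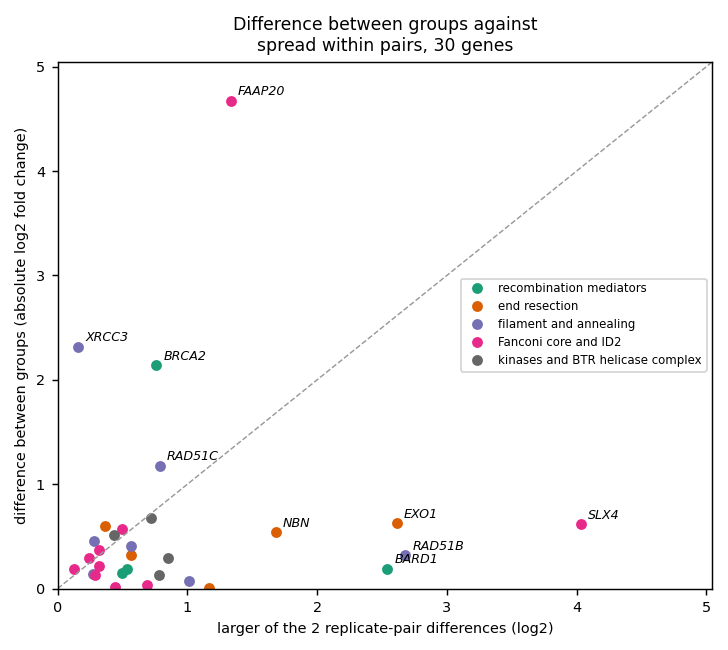
Absolute log2 fold change between groups (vertical) against the larger of the 2 absolute log2 ratios within the replicate pairs (horizontal) for the 30 tested genes, with a dashed line where both are equal and colours for the role. The 11 genes above the line include FAAP20, XRCC3, BRCA2 and RAD51C, while SLX4, RAD51B, EXO1 and BARD1 lie far to its right. The share above the line was not computed over all genes, so the 11 are not a result about the pathway. BRCA2 passed the low-count filter through its resistant counts alone.

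Per transcript, edgeR called 0 of the 121 tested at an adjusted p under 0.05, and 0.0% of all 42393. At an unadjusted p under 0.05 there were 3, against a background of 7.74%: ENST00000476803 and ENST00000497675 of FAAP20 and ENST00000554811 of XRCC3. DESeq2 called these same 3, with adjusted p-values of 6.69e-24, 0.0129 and 1.53e-09, against 5.33% of all transcripts. Of the 3, ENST00000497675 passed the low-count filter through its resistant counts alone. Groups did not overlap for 48 of the 121, against 40.3% of all. Transcripts higher in resistant cells numbered 61 and those lower 60. For unequal change within a gene, 25 genes had enough transcripts to test, and 0 passed at an adjusted p under 0.05, against 4.28% of all 7402 genes. At an unadjusted p under 0.05 there were 2 of 25, FAAP20 and RAD51C, against 12.4%. On simulated data this last test called more unchanged genes than its threshold allows. The simulation set the spread between libraries well below the one estimated here, so it does not give the error rate for these data.

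Other genes of recombination and crosslink repair, a list of 84, gave 66 with a noncoding row and 64 tested, 31 of them higher and 33 lower in resistant cells. None passed at an adjusted p under 0.05 in edgeR, and 2 had an unadjusted p under 0.05, both lower, against 3.93% of all genes in that direction. RAD9A, a subunit of the checkpoint clamp that activates ATR, had 1348 and 442 counts in the wild-type pair, against 244 and 274 in the resistant pair, a log2 fold change of -2.15 ± 0.64 (SE) with an unadjusted p of 0.0318 and an adjusted p of 0.511. CENPX, which binds DNA together with FANCM, had 2436 and 3859 counts against 1626 and 1864, a log2 fold change of -1.25 ± 0.39 (SE) with an unadjusted p of 0.0350 and an adjusted p of 0.521. Both had resistant values below the wild-type values in CPM. The median log2 fold change over the 64 genes was -0.02.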

How the data were processed

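For 4 libraries of human HepG2 cells the authors deposited 1 table, whose whole-number values were read as estimated counts of each transcript. Per the labels' protocols, libraries were made from 2 µg of total RNA and read as 150-base pairs. Not given in the sources used here are the aligner, counting tool, annotation and strand setting. A mouse build, mm9, stands in the submitters' processing notes, although 103347 of 106179 identifiers are human Ensembl transcripts. Identifiers were matched to GENCODE release 29 (GRCh38), and 84072 had a name. Counts were used as deposited, already whole.

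Noncoding transcripts were summed per gene. Gene sums and transcripts were fitted over the whole table with edgeR 4.0.16 (TMM, minimum count 10, quasi-likelihood test, two-sided, Benjamini-Hochberg, threshold 0.05), and isoform usage with diffSpliceDGE. CPM uses the TMM library sizes of the fit concerned, which differ between gene sums and transcripts. CPM of single or remaining transcripts therefore does not add up to CPM of the gene sum. CPM per kilobase divides each transcript by its length. The SE of an edgeR fold change was derived from the fold change and its test statistic. The common biological coefficient of variation was 0.736 for genes and 0.970 for transcripts. The fit was checked on simulated data. Counts of few reads vary by counting error, which intervals alone cover. Alternatives were DESeq2 1.42.0, limma-voom (limma 3.58.1), other scalings and filters, retained introns only, a replicate block, the Simes test and each library left out.

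Genes described with all values had an unadjusted p under 0.05, or were the 2 of highest mean CPM in their role group. Transcripts described had an unadjusted p under 0.05, or a mean share that differed by over 30 percentage points without overlap. Others were named after their values were seen. Transcripts left out to give a remainder were picked in the same way, and no remainder was tested. The members and lists were chosen with earlier results of these data known.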

Additional observations from a re-analysis of the deposited data

How the results depend on the processing

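Same-numbered libraries are not stated to share a culture, and their deviations correlated at -0.0200 over genes and 0.00844 over transcripts. With the replicate number as a block, 0 members were called and 41 genes instead of 317 passed the usage test. For gene sums, DESeq2 called 2 members and 632 of all genes where edgeR called 0, and retained introns alone left 1 member at an unadjusted p under 0.05. For transcripts, DESeq2 called 3 of the members' and 2261 of all, with 8 of the members' at an unadjusted p under 0.05, and limma-voom gave 5. For usage, a minimum count of 50 left 0 members at an unadjusted p under 0.05 and the Simes test 1. Leaving out each library in turn gave 8 to 12 member transcripts and 3 to 4 members in usage at an unadjusted p under 0.05, 0 to 2 members called in usage and 45 to 248 of all genes: XRCC3 (adjusted p 0.0343) and ATM (0.0155) without wild-type replicate 1, and TOP3A (0.0299) without resistant replicate 2, all by edgeR. The lone library left in a group is then assumed to vary like the other pair, and ATM and TOP3A each have a transcript counted mostly in 1 library. XRCC3 has ENST00000555451, counted 199, 0, 83 and 126 times, so that the wild-type library left in was at 0.

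Under at least 1 alternative the direction of 17 of the 30 tested genes turned, 8 of them among the genes described with all values. BARD1 went to 0.31 with limma-voom, 0.30 with the block, 0.66 with retained introns and -0.96 to 1.58 with 1 library left out (1.58 without wild-type replicate 2). RAD51B went to -0.23 with limma-voom and with the block, -0.36 with retained introns and -1.56 to 1.11 with 1 library left out (-1.56 without resistant replicate 2). Leaving out 1 library gave BRIP1 -0.0613 to 0.49 and ATM -0.0763 to 0.78 (both negative without wild-type replicate 2), EXO1 -1.20 to 1.43 (negative without resistant replicate 2) and FANCC -0.41 to 0.27 (positive without wild-type or resistant replicate 1). RBBP8 was -0.0888 and FAAP20 1.84 with retained introns, and FANCC 0.0182 by library size alone. XRCC3 stayed between -2.57 and -2.23 and RAD51C between 0.83 and 1.62 over all alternatives run. The unadjusted p of RAD51C was above 0.05 with the block (0.0795), with retained introns (0.0709) and with any library but wild-type replicate 2 left out. FAAP20 was between -5.51 and -4.14 with 1 library left out, and its ENST00000514625 between 0.24 and 4.54. Scaling by library size alone moved the median transcript by 0.14 (log2). The cause was not tested, and at 2 libraries a group the spread between libraries limits what the tests can call.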
